A study of Mus musculus with 8 samples.

Results

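Clusterin (Clu, also called apolipoprotein J) was followed across 8 arrays of mouse neurosphere cells, neural stem and progenitor cells that grow as floating clusters. The gene is represented by every probe set that the array annotation assigns to Clu alone, namely 95286_at and 161294_f_at. It is 1 of 8251 genes named on the array, and both of its probe sets passed the filter on dim signals. Clu was chosen by these same signals, since it was known to be far higher with TSA and lower again with both drugs. Its levels and changes are therefore given as a description, with standard errors and without p-values.

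Cells were taken from forebrains of embryos of day 14.5, isolated one by one, and every group, the untreated one included, carried a bcl2 transgene, whose promoter is not given in the sources used here. Treatment lasted 2 days. It consisted of AzaC (5-aza-2'-deoxycytidine, which inhibits DNA methyltransferases) at 500 nM, of TSA (trichostatin A, which inhibits histone deacetylases) at 150 nM, of both at these doses (AzaC/TSA), or of neither. There were 2 separate experiments, and each gave 1 array to each of the 4 groups. No label ties a forebrain to an array.

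Clusterin is a secreted glycoprotein that binds misfolded proteins outside the cell and keeps them soluble. It also travels on lipoprotein particles, is taken up through receptors of the LDL receptor family, and restrains the terminal complement complex. In the brain it is made mainly by astrocytes, and its synthesis rises after many kinds of stress and injury.

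With the brighter probe set, 95286_at, the Clu signal was 79.6 and 74.8 in the untreated arrays of experiments 1 and 2. It was 71.8 and 97.9 with AzaC, 1638.2 and 2048.8 with TSA, and 1055.6 and 1021.8 with AzaC/TSA. All 4 arrays with TSA lay far above all 4 without it, and both TSA arrays lay above both AzaC/TSA arrays. The untreated and AzaC arrays overlapped.

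The dimmer probe set, 161294_f_at, gave 19.2 and 4.6 untreated, 12.2 and 12.7 with AzaC, 578.5 and 599.6 with TSA, and 448.6 and 382.8 with AzaC/TSA. Its 4 signals without TSA were all under the floor of 20, below which signals were raised to that value and have no order. The 4 arrays with TSA had the same order of groups as the brighter probe set. By its name this probe set is of the family kind, whose probes can also bind related transcripts. The ratio of the brighter to the dimmer signal was 2.83 and 3.42 with TSA and 2.35 and 2.67 with AzaC/TSA, so the brighter probe set fell further between these groups.

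**Figure D1:**
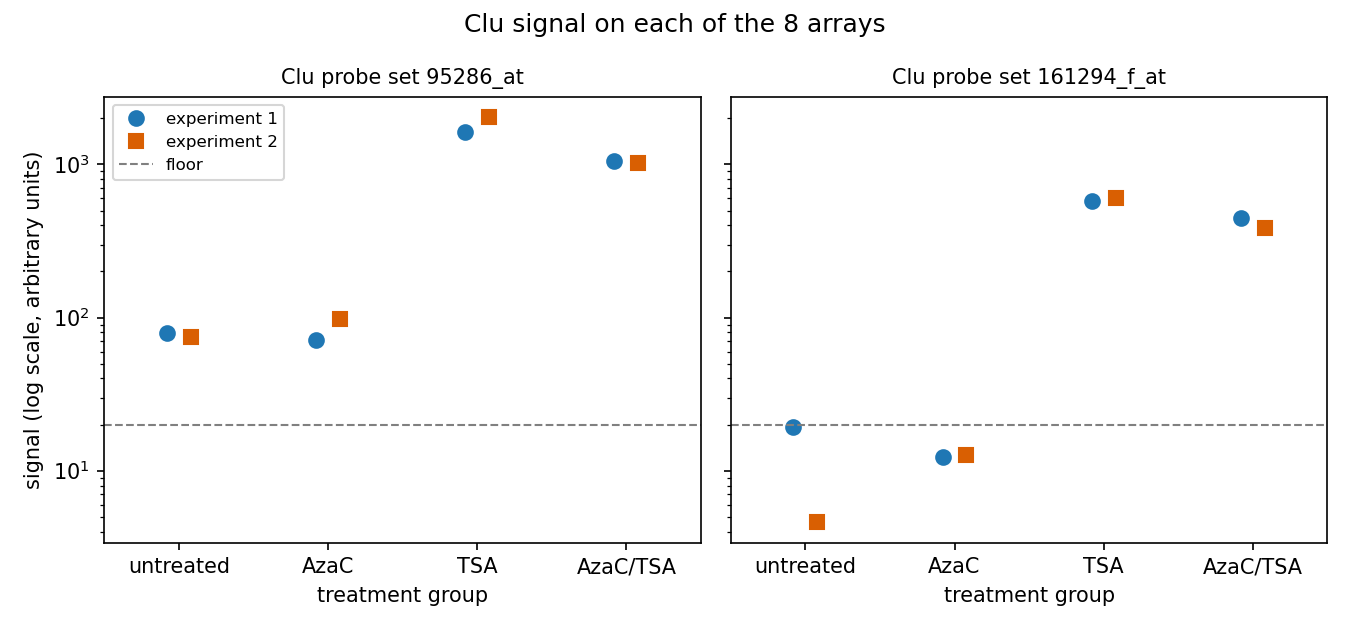
Signal of Clu on each of the 8 arrays (log scale) for its 2 probe sets, by treatment group, with 1 point per array, the experiment shown by colour and shape, and the floor of 20 as a dashed line. For 95286_at the arrays with TSA sit between 1021.8 and 2048.8 and those without it between 71.8 and 97.9.

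TSA alone was set against untreated cells to ask how histone deacetylase inhibition alters transcripts. Clu was 23.7-fold higher with TSA by 95286_at (log2 change 4.57, SE 0.28, n = 2 arrays per group). The change was 20.6-fold in experiment 1 and 27.4-fold in experiment 2. By 161294_f_at it was at least 29.4-fold (log2 change of at least 4.88), with at least 28.9-fold and at least 29.96-fold in the 2 experiments. Among 7987 tested probe sets 95286_at had the third highest value of the comparison, while 161294_f_at, measured only as a bound, has no exact rank. In that comparison limma called 2.09% of all probe sets higher at an adjusted p of 0.05, and in 26% both TSA arrays lay above both untreated arrays. Clu entered this description through the same comparison, so nothing is read from either share.

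Both drugs together were compared with untreated cells and with each drug alone. Against untreated, Clu was 13.5-fold higher with AzaC/TSA by 95286_at (log2 change 3.75, SE 0.28), and at least 20.7-fold higher by 161294_f_at. The brighter probe set gave nearly the same fold in both experiments, 13.3 and 13.7. Against AzaC alone it was 12.4-fold higher (3.63, SE 0.28), with 14.7-fold in experiment 1 and 10.4-fold in experiment 2.

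With both drugs, Clu was at 56.7% of its level with TSA alone (log2 change -0.82, SE 0.28). It was at 64.4% in experiment 1 and 49.9% in experiment 2. The dimmer probe set gave 70.4% (-0.51, SE 0.33), with 77.5% and 63.8%. Every one of these within-experiment values was below TSA alone. In signal units, the increase over untreated was 1558.6 with TSA and 976 with AzaC/TSA in experiment 1, so that 62.6% of it was seen with both drugs. In experiment 2 the increases were 1974 and 947, which is 48%. For the dimmer probe set the shares were 76.8% and 63.6%, with untreated signals that lay under the floor.

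Over all tested probe sets the 5th and 95th percentiles of this AzaC/TSA against TSA difference were -0.70 and 0.74. The brighter Clu probe set had the 274th lowest of 7987 values, and the dimmer one the 785th lowest. limma called 0% of all probe sets in either direction at an adjusted p of 0.05, while 108 were higher and 77 lower at an unadjusted p under 0.05. In 14.7% of probe sets both AzaC/TSA arrays were under both TSA arrays, as for Clu, and in 27% the signal was lower within each experiment. Clu was chosen for being lower with both drugs than with TSA alone, so nothing is read from its place among these values.

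AzaC alone asked what inhibition of DNA methylation does without TSA. By 95286_at Clu was 1.09-fold the untreated level (log2 change 0.12, SE 0.28), lower in experiment 1 (-0.15) and higher in experiment 2 (0.39). This was less than the spread between the 2 AzaC arrays (SD 0.32 on the log2 scale), and by 161294_f_at all 4 signals were under the floor. Of all probe sets limma called 0% in this comparison, with 117 higher and 58 lower at an unadjusted p under 0.05. The interaction, the log2 change of AzaC added to TSA minus that of AzaC alone, was -0.94 (SE 0.39) for 95286_at, with -0.49 and -1.39 in experiments 1 and 2, and at 161294_f_at -0.51 (SE 0.47) with every value of the arrays without TSA set to the floor.

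**Figure D2:**
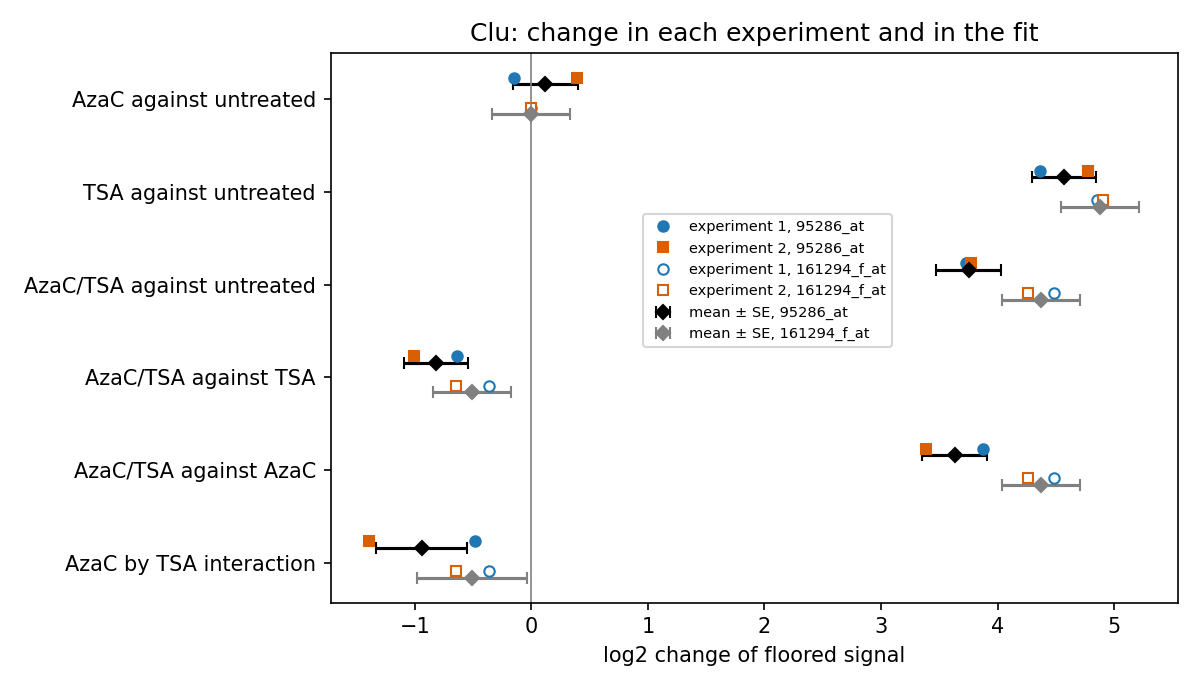
Log2 change of Clu in 6 comparisons, for each experiment (coloured points) and in the fit over all arrays (diamonds, bars of 1 SE), with filled points for 95286_at and open points for 161294_f_at. The values of 161294_f_at are lower bounds for TSA and AzaC/TSA against untreated and for AzaC/TSA against AzaC. For AzaC against untreated and for the interaction they bound nothing, since the untreated and AzaC signals were all under the floor. All points of AzaC/TSA against TSA lie below 0, and those of TSA against untreated lie between 4.36 and 4.91.

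The order of the group levels of Clu was TSA, AzaC/TSA, AzaC and untreated for the brighter probe set. The mean log2 signals were 10.84 ± 0.23 (SD, n = 2), 10.02 ± 0.03 (SD, n = 2), 6.39 ± 0.32 (SD, n = 2) and 6.27 ± 0.06 (SD, n = 2). The last pair of neighbours did not differ beyond its spread. Clu was chosen for the difference between TSA and AzaC/TSA, so nothing is read from its size beside these SDs. The residual SD of 95286_at was 0.20, against a median of 0.40 over all tested probe sets, and 12.3% of probe sets had a smaller one.

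With 2 arrays per group, the residual SD of Clu comes from its differences between experiments 1 and 2, so these are no separate result. Experiment 2 minus experiment 1 was -0.09 untreated, 0.45 with AzaC, 0.32 with TSA and -0.05 with AzaC/TSA on the log2 scale of 95286_at. The median absolute difference over all tested probe sets ran from 0.39 to 0.44 in the 4 groups. Only the AzaC value of Clu exceeded the median of its group.

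**Figure D3:**
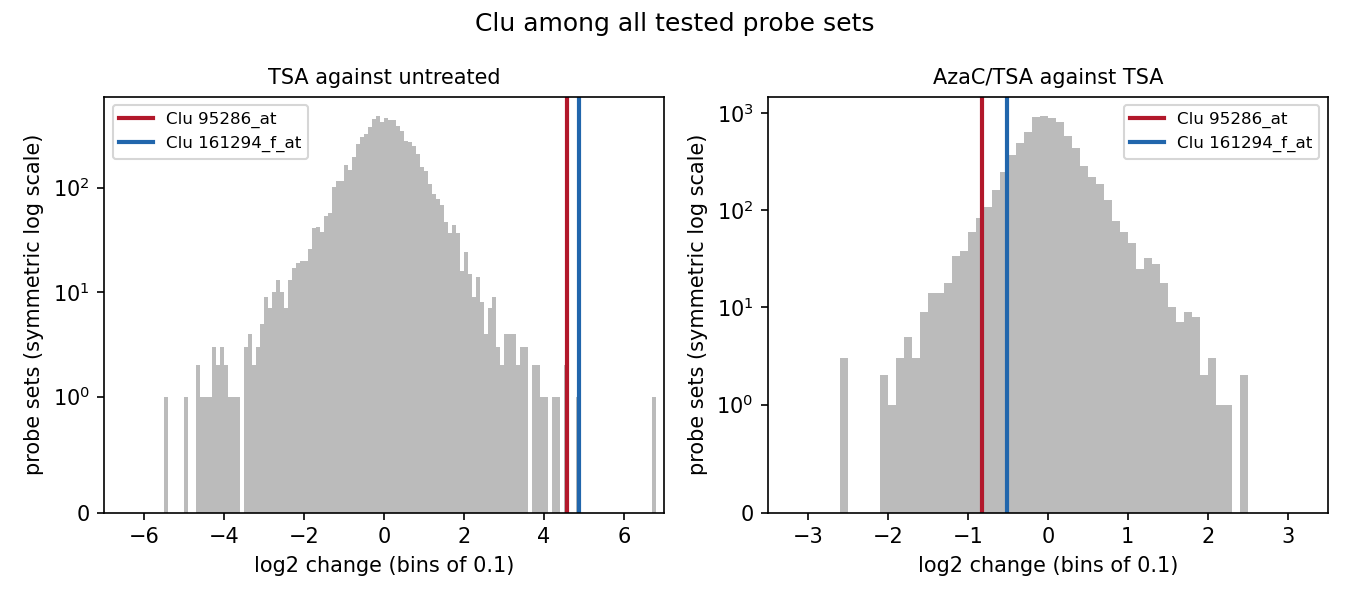
Number of tested probe sets (symmetric log scale) by log2 change in bins of 0.1, for TSA against untreated (left) and AzaC/TSA against TSA (right), with vertical lines at the 2 Clu probe sets. Clu lies at 4.57 and at a lower bound of 4.88 in the upper tail on the left, and at -0.82 and -0.51 on the low side on the right.

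Signs of RNA quality were read from the 5' and 3' signals of the actin and Gapdh controls. Their part in the Clu values was not tested. The ratio of 5' to 3' signals of the actin control was 0.33 and 0.378 with TSA, and 0.29 and 0.39 with AzaC/TSA in experiments 1 and 2, lower with both drugs in experiment 1 and higher in experiment 2. Clu was lower with both drugs in each experiment. The actin ratio was 0.427 and 0.332 untreated, and 0.471 and 0.398 with AzaC. The Gapdh ratio was 0.904 and 0.867 untreated, 1.04 and 0.993 with AzaC, 0.848 and 0.808 with TSA, and 0.738 and 0.982 with AzaC/TSA. In each experiment the Gapdh ratio was lower with TSA than untreated, and lower with AzaC/TSA than with AzaC. The median array signal ran from 59.2 to 72.7 over the 8 arrays. All arrays had been scaled to the same trimmed mean.

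The cell identity behind the Clu values was looked at through marker lists. Over all probe sets limma called 2.09% higher and 2.93% lower with TSA, and 1.29% higher and 1.83% lower with AzaC/TSA. With the experiment as a block these shares were larger, 5.6% higher and 6.56% lower with TSA, and 4.38% higher and 4.96% lower with AzaC/TSA.

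The labelled neural progenitor identity was borne by some of its markers. Sox2, a transcription factor of neural stem cells, ran from 2390.6 to 4830.4, and Nes, their intermediate filament nestin, from 1049 to 3003. Other members were dim: the filament protein Vim ran from 21.3 to 56, the Notch target Hes5 from 2.9 to 93.8 and the hedgehog effector Gli3 from 7.7 to 64.2, and these were not tested. Msi1, an RNA-binding protein, had 45.7 and 10.3 untreated, and the surface protein Prom1 13.8 and 4.2. Of 8 tested markers of these cells, 0 rose and 1, Fabp7, fell with TSA, and 0 passed with AzaC/TSA (with the block, 1 rose and 2 fell, and 1 rose and 1 fell). The summed signal of these 8 was 16148.9 to 17711.8 untreated, 15126.5 to 17436.1 with AzaC, 6353.4 to 8531.4 with TSA and 9965.5 to 14076.9 with AzaC/TSA. It was lowest with TSA, where Clu was highest, and the TSA and AzaC/TSA ranges did not overlap. Without Fabp7 the sum of the other 7 was 6791.7 to 6838.9 untreated, 5290.5 to 6034.5 with TSA and 6929.5 to 8577.5 with AzaC/TSA, again lowest with TSA. The part of these markers in the Clu values was not tested.

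Of 12 tested astrocyte markers other than Clu, 0 rose and 1 fell with TSA, and 0 passed with AzaC/TSA (with the experiment as a block, 0 rose and 2 fell, and 1 rose and 1 fell). The member that fell was S100b, a calcium-binding protein, which went from 178.4 and 200.4 untreated to 59.7 and 62.9 with TSA (log2 change -1.63, limma adjusted p = 0.0494); it passed in 6 of 20 alternative settings, and was lost without either untreated, TSA or AzaC/TSA array or without AzaC 2. Gfap, the filament protein of astrocytes, was dim in every group (16.9 to 66.7). The summed signal of the tested astrocyte markers was 12724.2 to 23973.6 untreated, 16600.4 to 23103.5 with TSA and 19464.5 to 30366.7 with AzaC/TSA. These ranges overlapped, with the higher sum of each group in experiment 1. Within each experiment the sum was higher with AzaC/TSA than with TSA, 30366.7 against 23103.5 and 19464.5 against 16600.4. Untreated it was 23973.6 and 12724.2. A large part of the sum came from Cst3 and Apoe. Cst3 had 12423 and 6570.6 with TSA, and 14242.5 and 6691.7 with AzaC/TSA. Apoe had 4133.4 and 307.4 with TSA, and 8116.3 and 1949 with AzaC/TSA. The median log2 difference of the 12 markers between these groups was 0.14, with 9 above 0.

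Most tested neuron markers, like Clu, were higher with TSA and with AzaC/TSA than untreated. For AzaC/TSA against TSA, where Clu was lower, their median log2 change was 0.05, with 7 of 12 above 0. Of 12 tested, 7 rose with TSA and 6 with AzaC/TSA and 0 fell (7 and 8 rose with the block). Over all probe sets limma called 2.09% higher with TSA and 1.29% with AzaC/TSA (5.6% and 4.38% with the block). The median log2 changes of these markers were 1.60 and 1.65, against 0.0144 and -0.0025 over all probe sets. Their summed signal was 3047.3 to 3205.6 untreated, 2925.9 to 4488.3 with AzaC, 6223.9 to 6996.6 with TSA and 6044.2 to 7341.7 with AzaC/TSA. The sums with TSA and with AzaC/TSA overlapped over the experiments. In bulk RNA, more cells of a type and more RNA per cell cannot be told apart, and the part of these markers in the Clu values was not tested.

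Among markers of other cells that can make clusterin, many were dim. An exception was the fibroblast and meninges list, with 8 of 10 members tested and a summed signal of 1740.8 to 1772.8 untreated. Ttr, the transthyretin of choroid plexus, reached at most 41.6 on any array, Kl at most 6 and Folr1 did not pass in either comparison. Of the 4 tested choroid plexus and ependymal markers 1 rose with TSA and with AzaC/TSA, the growth factor Igf2 (3.21, limma adjusted p = 0.0139, and 2.72, adjusted p = 0.0287), which many other cells also make; its TSA call was lost without untreated 1 or TSA 1, and its AzaC/TSA call without either untreated or AzaC/TSA array. Of 3 tested microglia and macrophage markers 1 rose in each, the lysosomal protein Cd68 (2.69 and 2.62; passing in 13 and 9 of 20 alternatives; the first call was lost without any 1 untreated or TSA array, the other without any 1 array but AzaC/TSA 1), while Ptprc stayed at or under 19.2, Itgam at or under 8.8 and Aif1 at or under 9.1. Markers of oligodendrocyte lineage (4 tested), endothelial cells and pericytes (2) and fibroblasts and meninges (8) had 0 members past the threshold with TSA or AzaC/TSA; with the block 1 fibroblast marker rose with TSA and 1 fell with AzaC/TSA.

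The receptors of clusterin did not pass in any comparison (0 of 5 tested, also with the block). Lrp2, megalin, which takes up clusterin with its cargo, had signals of 24.5 and 37.1 untreated, 24.8 and 35.4 with AzaC, 87.6 and 71.7 with TSA, and 50.3 and 81.2 with AzaC/TSA. Its log2 change of 1.39 (SE 0.51) for TSA did not pass (limma adjusted p = 0.162). The lipoprotein receptor Vldlr (0.46) and Lrp1 (0.07) also did not pass. The list median was 0.11 with TSA and 0.19 with AzaC/TSA.

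Among 13 tested apolipoproteins and lipid transfer genes, 0 rose and 1 fell with TSA and 1 rose with AzaC/TSA (with the block, 2 rose and 1 fell, and 3 rose and 1 fell). Fabp7, the fatty acid binding protein of radial glia, fell with TSA (-2.63, SE 0.43, adjusted p = 0.0133), a call lost without either untreated array or TSA 2. Abca1, which loads lipid onto apolipoproteins, rose with AzaC/TSA (2.79, SE 0.61, adjusted p = 0.0451), passing in 9 of 20 alternatives and lost without any 1 untreated, AzaC or AzaC/TSA array, and had 1.88 with TSA (adjusted p = 0.122, and 0.0287 with the block). Apoe, the other main glial apolipoprotein, had signals of 2632.6 and 236.9 untreated, 3895 and 1830.6 with AzaC, 4133.4 and 307.4 with TSA, and 8116.3 and 1949 with AzaC/TSA. Experiment 1 was above experiment 2 in each group, and no Apoe comparison passed without the block. With the block, AzaC/TSA against untreated passed (2.33, limma adjusted p = 0.0235, against 0.416 without it).

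Of 17 tested extracellular chaperones and amyloid-associated secreted proteins, 2 rose with TSA and 1 with AzaC/TSA, and 0 fell. With the block, 6 rose and 0 fell with TSA, and 5 rose and 1 fell with AzaC/TSA. The shares of all probe sets called higher were 2.09% and 1.29% (5.6% and 4.38% with the block). Lcn2, lipocalin 2, a secreted carrier of small iron-binding molecules, was under the floor on both untreated arrays (16.4 and 9), reached 223.2 and 509.5 with TSA, and 100.2 and 248.9 with AzaC/TSA. Its log2 changes were at least 4.07 (limma adjusted p = 0.00726) and at least 2.98 (adjusted p = 0.0275). A second, dimmer Lcn2 probe set did not follow it (-0.30 with TSA, adjusted p = 0.786). The TSA call was lost without untreated 2 (also for Timp1) or TSA 2, and the AzaC/TSA call without either untreated array or AzaC/TSA 2. Timp1, an inhibitor of matrix metalloproteinases, went from 159.1 and 200.8 untreated to 794.8 and 1971.2 with TSA (2.81, adjusted p = 0.0123) and 666.7 and 413.3 with AzaC/TSA (1.55, adjusted p = 0.104, and 0.0365 with the block), and its TSA call was also lost without untreated 1 or TSA 2. For both genes each experiment gave a lower signal with both drugs than with TSA alone (log2 differences of -1.09, SE 0.57, and -1.25, SE 0.44). Neither difference passed, and 27% of all probe sets were lower within each experiment. Both genes were named for calls that rest on the same TSA arrays, so nothing is read from these differences. Against AzaC alone, where limma called 1.11% of all probe sets higher and 1.68% lower (4.49% and 4.82% with the block), Lcn2 (at least 2.80, with AzaC signals of 25.8 and 4.8, adjusted p = 0.0391, passing in 7 of 20 alternatives) and Aplp2, a relative of the amyloid precursor protein (1.38, adjusted p = 0.0329, passing in 11), rose with AzaC/TSA. Each of these calls was lost without any 1 untreated, AzaC or AzaC/TSA array, and that of Lcn2 also without TSA 2.

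Complement genes, whose terminal complex clusterin restrains, had 0 of 9 tested members past the threshold with TSA or AzaC/TSA (with the block 1 fell with TSA). Their medians were -0.09 and -0.17. In the list of endoplasmic reticulum chaperones of the secretory route, through which clusterin passes, 1 of 19 rose with TSA and 0 with AzaC/TSA, the same counts with the block. That member was the stress transcription factor Ddit3 (1.74, SE 0.32, limma adjusted p = 0.0211). Its signals were 167.1 and 104.1 untreated, 419.2 and 461.4 with TSA, and 231.7 and 268.5 with AzaC/TSA. In each experiment Ddit3 was lower with both drugs than with TSA alone (-0.82, SE 0.32, not past the threshold). It was named for a call on the same TSA arrays, so nothing is read from this difference. Its TSA call was lost without untreated 2 or either TSA array.

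Of 20 tested transcription factors known to act on clusterin genes, 2 rose with TSA and the same 2 with AzaC/TSA, and 0 fell. With the block 4 rose in each. The shares of all probe sets called higher were 2.09% and 1.29% (5.6% and 4.38% with the block). Fos, a part of the AP-1 factor, had signals of 64.9 and 42.2 untreated, 65.6 and 81.6 with AzaC, 580.9 and 874.7 with TSA and 877.1 and 664.7 with AzaC/TSA. Its log2 change was 3.77 (SE 0.36, limma adjusted p = 0.00155) with TSA and 3.87 (adjusted p = 0.0015) with AzaC/TSA. Egr1, an immediate early zinc finger factor, had 2.17 (SE 0.42, adjusted p = 0.0254) and 2.26 (adjusted p = 0.026). The Fos calls passed in all 20 alternatives, while those of Egr1 were lost without either untreated array, either TSA array (TSA) or AzaC/TSA 1 (AzaC/TSA). Unlike Clu, Fos and Egr1 were higher with both drugs than with TSA alone in experiment 1 and lower in experiment 2. Junb (1.79), Jun (0.78) and Mybl2 (-1.82) did not pass with TSA. With the block Junb did, with a limma adjusted p = 0.00655 against 0.0647 without it. Junb also rose with AzaC/TSA against AzaC (2.36, adjusted p = 0.036), as did Fos (3.38) and Egr1 (2.63); the Junb call was lost without any 1 untreated, AzaC or AzaC/TSA array, and that of Egr1 without AzaC 2 or AzaC/TSA 1. Every named call of a list member but those of Fos was also lost when dim probe sets were not filtered out. The heat shock factor Hsf2 was too dim to be tested (at most 24.6).

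Of 13 tested cell death genes and clusterin partners, 1 fell with TSA, Cycs, cytochrome c (-1.26, SE 0.30, limma adjusted p = 0.0472, passing in 8 of 20 alternatives and lost without any 1 array), and 0 passed with AzaC/TSA, with the same counts under the block. Xrcc6, the Ku70 protein that nuclear clusterin binds, had -0.23 and -0.11. Bcl2, the survival gene also carried as a transgene, had 0.04 and 0.43; whether its probe set also reads the transgene is not given in the sources used here.

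**Figure D4:**
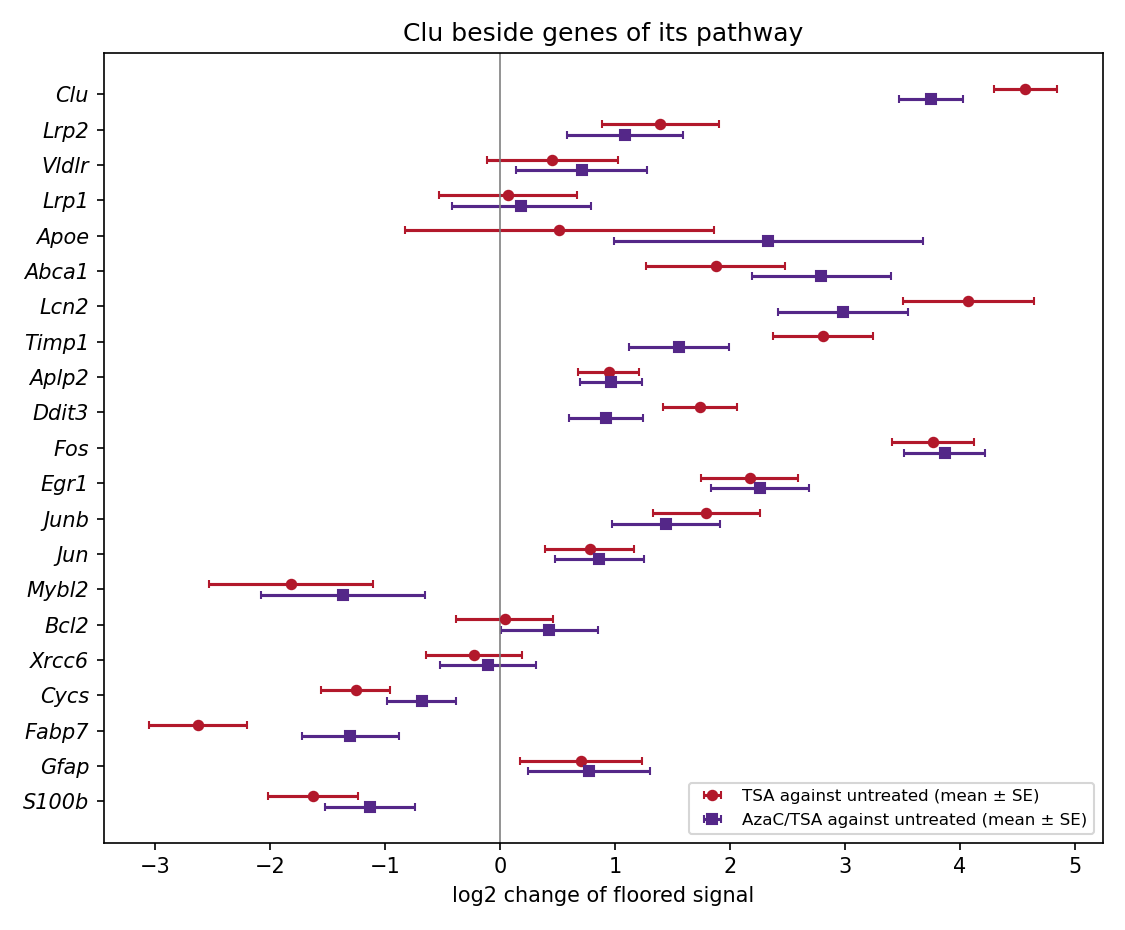
Log2 change against untreated with TSA (circles) and AzaC/TSA (squares), mean with bars of 1 SE, for Clu (95286_at) and 20 other genes of its pathway and of the marker lists. Clu is at 4.57 and 3.75, Fos at 3.77 and 3.87, and Timp1 at 2.81 and 1.55; both comparisons share the untreated arrays, and those of Lcn2 are lower bounds.

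The genes whose pattern was most like that of Clu were ranked by Pearson's r of log2 signals with 95286_at over the 8 arrays, among 6010 genes. These arrays fall into 4 with TSA and 4 without, in pairs of a shared experiment, so r mainly measures that separation; 240 genes reached 0.9 and 321 reached -0.9. The highest were Grn (0.992), which encodes progranulin, a secreted and lysosomal glycoprotein, Tax1bp1 (0.992), an autophagy receptor, and Pld3 (0.992), a lysosomal nuclease. Ramp3 (0.989), Tgoln1 (0.987), a protein of the trans-Golgi network, Psmb1 (0.986), Dync1h1 (0.986), H2-Q5 (0.986), Dhx40 (0.983) and Bsg (0.982) completed the 10. Ramp3 and H2-Q5 were under the floor on all 4 arrays without TSA, so those values have no order. H2-Q5 had a log2 change of 0.04 for AzaC/TSA against TSA. A second Psmb1 probe set had r = 0.632.

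Grn had signals of 766.9 and 711.8 untreated, 706.7 and 741.5 with AzaC, 3846.5 and 5166.5 with TSA and 3146.2 and 4168.2 with AzaC/TSA. Each experiment gave less with both drugs than with TSA, by a smaller difference than for Clu (-0.30). Grn was picked for its likeness to Clu over these arrays, so nothing is read from this. A second Grn probe set had r = 0.175. Pld3 stood at 182.6 and 158.3 untreated, 987.2 and 884.5 with TSA and 704.9 and 829 with AzaC/TSA. Tgoln1 went from 633.1 and 427.9 to 2462.1 and 2385.7 with TSA and 1692 and 1606.8 with AzaC/TSA (-0.56 between the last groups), and its other 3 tested probe sets had r from 0.793 to 0.855. Tax1bp1 kept the shape at a far smaller scale (0.65 with TSA, limma adjusted p = 0.114, and 0.0412 with the block), and its other 2 probe sets had r of 0.00173 and 0.738.

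The patterns most opposite to Clu belonged to Ppp1r14b (-0.997), an inhibitor of a protein phosphatase, Gpn1 (-0.994), Pole4 (-0.992), a subunit of DNA polymerase epsilon, Ap4s1 (-0.991) and Rrm2 (-0.990), the ribonucleotide reductase subunit made in S phase. Rrm2 stood at 676.3 and 804.2 untreated, 80.7 and 64.3 with TSA and 94.7 and 110.6 with AzaC/TSA. In each experiment it was higher with both drugs than with TSA alone (0.51).

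**Figure D5:**
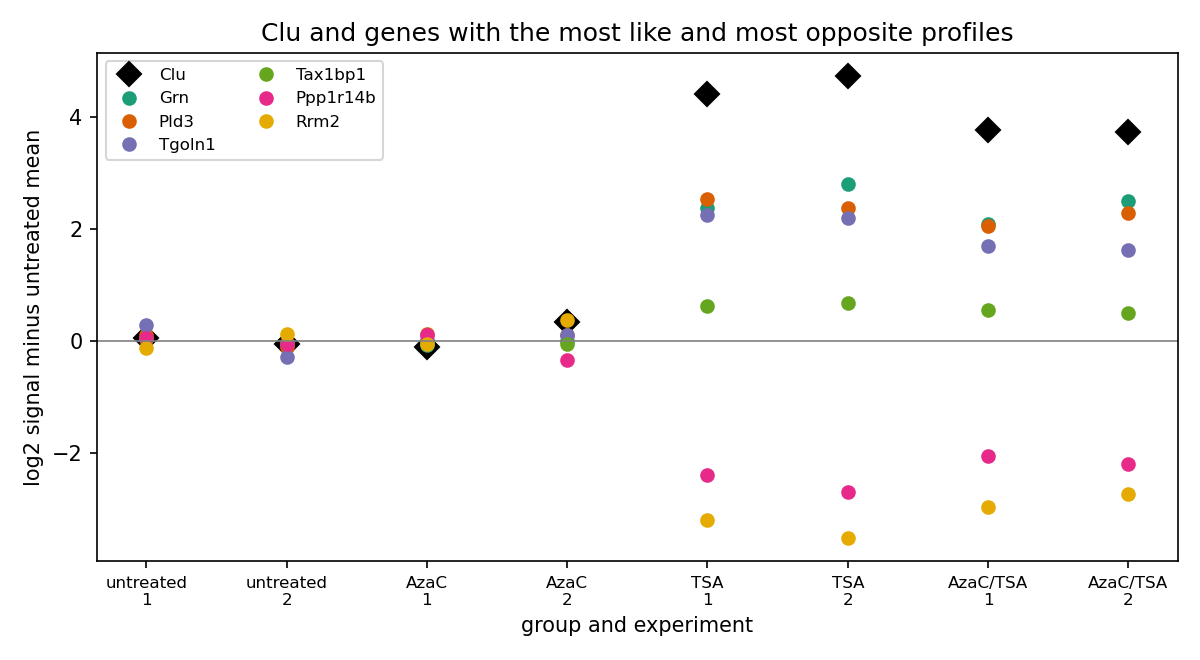
Log2 signal minus the untreated mean on each of the 8 arrays for Clu (diamonds), 4 of the 10 genes most like it and 2 of the 5 most opposite (circles). All 4 arrays with TSA are above 0 for Clu, Grn, Pld3, Tgoln1 and Tax1bp1, and below 0 for Ppp1r14b and Rrm2.

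The chromosomal neighbourhood of Clu was read from the RefSeq gene order of GRCm38.p6. Of the 6 protein-coding genes on each side, 3 were named on the array, Adam2, Ephx2 and Ptk2b, and these were chosen after the files were seen. Adam2 (at most 27.2) and Ephx2 (at most 39.5) were too dim to be tested. Ptk2b, a kinase that responds to calcium, had 37.4 and 24.9 untreated, 102.3 and 60.3 with TSA and 72.2 and 44.7 with AzaC/TSA, a log2 change of 1.36 with TSA that did not pass (limma adjusted p = 0.212).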

How the data were processed

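The authors deposited a linear intensity for each probe set on each array, and all 8 arrays had 1 shared 2%-trimmed mean (200.1); the upstream software is not given in the sources used here. Of 12488 probe sets, 66 controls were left out. Signals under 10% of the trimmed mean (20) were raised to it and log2-transformed, and the 7987 probe sets at or above 25% (50) on at least 2 arrays entered a limma fit (version 3.58.1 under R 4.3.3; lmFit and a trended eBayes; 4 residual degrees of freedom, prior 4.93), 1 mean per group. P-values are two-sided and Benjamini-Hochberg adjusted over all probe sets (threshold 0.05). They rest on 2 arrays per group, whose number limits the precision. The fit was tested on simulated data.

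Gene symbols came from the platform annotation, updated through the RefSeq table (10839 of 10855 single-symbol probe sets matched). 1 probe set per gene, the one of highest mean, was used for lists. List members were named when past the threshold in a comparison of 2 groups (up to 8 per list), together with 18 preset genes where tested; the 10 genes of highest and 5 of lowest r with Clu were named. Marker lists were described by counts and by some of the members that passed (S100b, Igf2 and Cd68), which were named after their values were seen. The neuron markers that passed were counted and not named. Members, lists and rules were chosen with earlier results of these data known.

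The titles number the experiments 1 and 2, which pairs the arrays. Deviations from group means correlated between groups with r from 0.203 to 0.411 over 6 pairs of groups. Alternatives were the experiment as a block, scaling, floor, filter, trend, robust eBayes, only the groups compared, each array left out, and the other Clu probe set.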

Additional observations from a re-analysis of the deposited data

How the results depend on the processing

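The log2 changes of Clu kept their direction in every alternative, except that of AzaC against untreated, which lay between -0.10 and 0.34 with each array left out. With each array left out, TSA against untreated ran from 4.41 to 4.73, AzaC/TSA against untreated from 3.71 to 3.80, AzaC/TSA against TSA from -0.98 to -0.66, AzaC/TSA against AzaC from 3.41 to 3.85 and the interaction from -1.16 to -0.71. An offset in place of the floor lowered the changes by construction, to 4.25 for TSA, 3.45 for AzaC/TSA and 3.35 for AzaC/TSA against AzaC. The other Clu probe set, under the floor on every array without TSA, gave at least 4.88 and at least 4.37 against untreated, -0.51 for AzaC/TSA against TSA, at least 4.37 against AzaC, and -0.51 for the interaction with the arrays without TSA at the floor.

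The counts of pathway genes past the threshold moved more. With the experiment as a replicate block, 13 rose with TSA (5 without the block), 12 rose and 2 fell with AzaC/TSA (4 and 0), and 13 rose and 2 fell with AzaC/TSA against AzaC (5 and 0). Calls over all probe sets also rose with the block, for example from 2.09% to 5.6% higher with TSA, and against AzaC to 4.49% higher and 4.82% lower. Without the filter, 2 rose and 0 fell with TSA (main count of falls 2), 1 rose with AzaC/TSA, 1 rose against AzaC, and 1 fell with AzaC/TSA against TSA, the AP-1 part Fosl1, with signals of 48.1 and 42.1 with TSA and 5.5 and 9.8 with both drugs. It was singled out after its values were seen. Falls with TSA numbered 1 with quantile normalization, without the intensity trend and with only the groups compared. Rises with AzaC/TSA numbered 2 with a floor of 20% or no trend, and 1 with only the groups compared; against AzaC they numbered 2 without the trend and 1 with only the groups compared. With an array left out, the counts ran from 1 to 5 rises and 0 to 1 falls with TSA, 1 to 4 rises with AzaC/TSA, and 1 to 6 rises against AzaC. The cause was not tested. Rises with TSA were 1 without untreated 2 and 1 without TSA 2, and 3 without untreated 1 or TSA 1. Of the 10 genes most like Clu, 4 were shared with r within experiments (Grn, Tax1bp1, Pld3 and Tgoln1) and 0 with Spearman's rho; of the 5 most opposite, 2 and 0.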
